A study of Mus musculus with 6 samples.

Results

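SOX4 binding sites were set against open chromatin in the lin-CD34+ population of EML cells, a mouse line of multipotent blood precursors. The members were the 3016 peaks of the SOX4 ChIP-seq library, split by whether a peak shared at least 1 bp with 1 of the 143365 distinct intervals of the ATAC-seq library. Of the 3016 peaks, 163 were open by this rule and 2853 were not, which gives an open share of 5.40% (exact 95% interval 4.62 to 6.27). The series as a whole holds 149791 factor peaks and distinct ATAC intervals. SOX4 and open chromatin were mapped in lin-CD34+ cells, as was STAT3, and GABPa was mapped in lin-CD34- cells. The strain is given as B6D2F1, no treatment beyond the sort by CD34 is labelled, and all groups share the state of the line, which was immortalised with a dominant-negative retinoic acid receptor. Each group was 1 library, so no spread between libraries could be had and no p-value was computed. Brackets after a share or a median give exact 95% intervals over peaks, which cover counting error only.

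SOX4 is a transcription factor with an HMG box, a domain that enters the minor groove and bends DNA. In blood it is known for its part in early B cell and T cell development and for its activity in leukaemia. Biochemical work on related SOX proteins has shown binding to DNA that is wrapped on nucleosomes. In ATAC-seq the Tn5 transposase cuts DNA that it can reach, so that active gene starts and enhancers appear as intervals of many cuts. Overlap of a factor's peaks with such intervals tells where it was found on accessible DNA in the same cell population.

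The promoters of marker genes were looked up in the ATAC list of the sorted population. An ATAC interval lay within 1000 bp of the transcription start site (TSS) of all 10 precursor markers, among them Cd34, Kit, Gata2 and Runx1. The same held for 2 of 6 erythroid markers, 4 of 6 neutrophil and monocyte markers, 2 of 6 lymphoid markers, and 3 of 4 mast cell and megakaryocyte markers. Myh6, Sftpc and Krt5, 3 of 6 markers of tissues other than blood, also had one, so an interval there does not by itself mark the cell type. Among other gene lists, 26 of 26 JAK-STAT genes, 31 of 34 cell cycle genes and 24 of 46 neural adhesion genes had one. The share over all genes was not computed. Counts of open promoters in a list, here and below, are thus not read as identity. The SOX4 list held 1 peak at a precursor marker, in the first intron of Cd34, with 13 tags and 2005 bp from the nearest ATAC interval.

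The sequences in which SOX4 peaks met promoters show what the open and closed sites looked like. RefSeq promoter sequences (GRCm38.p6, the assembly also named mm10) run from 250 bases before to 50 bases after a gene's TSS. A SOX4 peak reached into 29 of these windows, 8 with an open and 21 with a closed peak. The 4 open and the 2 closed peaks with the most bases in a window are printed below from the first base to the base before the TSS, with the bases of the SOX4 peak in capitals. The first 4 are open: Cfp encodes properdin, a regulator of complement, Tnpo2 a nuclear import receptor, Parl a rhomboid protease of mitochondria, and Nabp2 a single-strand DNA-binding protein of DNA repair. The other 2 are closed: Ceacam9 belongs to a family of adhesion molecules and Spata16 is known from sperm formation.
Cfp, chrX:20931556-20931805, minus strand, open: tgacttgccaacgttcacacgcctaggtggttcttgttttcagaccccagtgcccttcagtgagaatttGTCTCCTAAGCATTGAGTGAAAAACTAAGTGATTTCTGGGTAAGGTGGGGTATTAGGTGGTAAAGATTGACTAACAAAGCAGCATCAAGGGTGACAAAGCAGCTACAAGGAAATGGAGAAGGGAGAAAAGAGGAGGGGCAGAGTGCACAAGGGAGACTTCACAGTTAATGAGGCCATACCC
Tnpo2, chr8:85036643-85036892, plus strand, open: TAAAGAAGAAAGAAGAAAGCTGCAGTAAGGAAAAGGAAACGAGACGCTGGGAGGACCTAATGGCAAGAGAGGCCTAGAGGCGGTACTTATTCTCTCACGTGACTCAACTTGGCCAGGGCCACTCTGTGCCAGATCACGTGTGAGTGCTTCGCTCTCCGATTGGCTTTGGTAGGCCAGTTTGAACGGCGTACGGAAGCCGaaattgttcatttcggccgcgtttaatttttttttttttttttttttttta
Parl, chr16:20302363-20302612, minus strand, open: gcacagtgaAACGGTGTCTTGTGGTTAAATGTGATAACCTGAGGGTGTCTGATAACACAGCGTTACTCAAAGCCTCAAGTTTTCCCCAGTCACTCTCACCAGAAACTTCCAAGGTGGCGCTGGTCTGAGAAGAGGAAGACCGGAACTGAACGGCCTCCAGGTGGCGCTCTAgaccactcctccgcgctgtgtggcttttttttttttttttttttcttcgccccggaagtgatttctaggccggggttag
Nabp2, chr10:128409851-128410100, minus strand, open: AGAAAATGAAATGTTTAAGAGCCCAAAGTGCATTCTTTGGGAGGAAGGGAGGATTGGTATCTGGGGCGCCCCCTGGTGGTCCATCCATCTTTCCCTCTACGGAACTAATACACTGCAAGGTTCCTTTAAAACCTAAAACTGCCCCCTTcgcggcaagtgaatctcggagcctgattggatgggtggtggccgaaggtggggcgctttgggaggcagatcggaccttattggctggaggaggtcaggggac
Ceacam9, chr7:16721679-16721928, plus strand, closed: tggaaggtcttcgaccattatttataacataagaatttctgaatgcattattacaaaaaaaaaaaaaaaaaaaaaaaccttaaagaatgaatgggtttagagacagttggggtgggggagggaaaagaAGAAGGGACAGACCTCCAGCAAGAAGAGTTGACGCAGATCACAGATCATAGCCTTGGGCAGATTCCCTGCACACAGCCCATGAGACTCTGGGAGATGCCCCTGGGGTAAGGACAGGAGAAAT
Spata16, chr3:26637381-26637630, plus strand, closed: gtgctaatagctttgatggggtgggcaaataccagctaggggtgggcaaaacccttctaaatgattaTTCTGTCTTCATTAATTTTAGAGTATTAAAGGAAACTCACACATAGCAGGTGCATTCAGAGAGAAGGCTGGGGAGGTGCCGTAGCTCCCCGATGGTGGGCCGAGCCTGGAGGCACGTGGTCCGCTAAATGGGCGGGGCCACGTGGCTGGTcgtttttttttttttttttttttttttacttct

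The 2 forms of the SOX core motif that were searched did not set these windows apart. Other forms were not searched. ACAAAG or ACAATG, searched on both strands, was found in 1 of the 8 windows with an open peak (12.5%), in 7 of the 21 with a closed peak (33.3%) and in 28.6% of all 32851 RefSeq windows. The shares with an open and with a closed peak thus lay on either side of that of all windows. The open window with a match was that of Cfp, with 2 matches to ACAAAG inside the SOX4 peak, the first at base 143 of the printed run. None of the 21 closed windows had a match inside the peak, of which only the bases within the window were searched. These were 4 to 168 bases for closed peaks and 9 to 231 for open ones. The 300-base windows with an open peak held a median of 15 CpG dinucleotides (range 2 to 31), those with a closed peak 4 (0 to 23) and all windows 7. The Cfp window, with 2 CpG, was the lowest of the open ones. The windows were few, and a match or its absence says nothing about binding by the factor.

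SOX4 peaks near gene starts were open more often than those elsewhere, although 125 of the 163 open peaks lay away from a TSS. Of 160 SOX4 peaks within 1000 bp of a TSS, 38 were open (23.8%, 17.4 to 31.1), against 125 of 2856 others (4.38%, 3.66 to 5.19). The share was 31.2% (16.1 to 50.0) within 250 bp, 22.0% (15.2 to 30.3) from there to 1000 bp and 4.67% (3.24 to 6.50) from 1000 to 5000 bp. Farther out it was 5.45%, 3.56% and 3.68%, with intervals that overlap each other. Promoters thus made up 23.3% (17.1 to 30.6) of open peaks and 4.28% (3.56 to 5.08) of closed ones. ATAC intervals themselves lay in promoters in 14.1% of cases, and promoters held 30.5% of the 30.2 Mb that the intervals covered. By the authors' annotation, peaks in introns were open in 4.83% of 2444 cases and intergenic ones in 2.63% of 266. Both lists reach at most 5000 bp upstream of a TSS, so sites farther upstream are not in the intergenic class. A CpG island annotation was rare, with 10 SOX4 peaks, of which 5 were open, at Zbtb7a, 2410002F23Rik, Fam60a, Bnip3l and Btaf1.

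**Figure D1:**
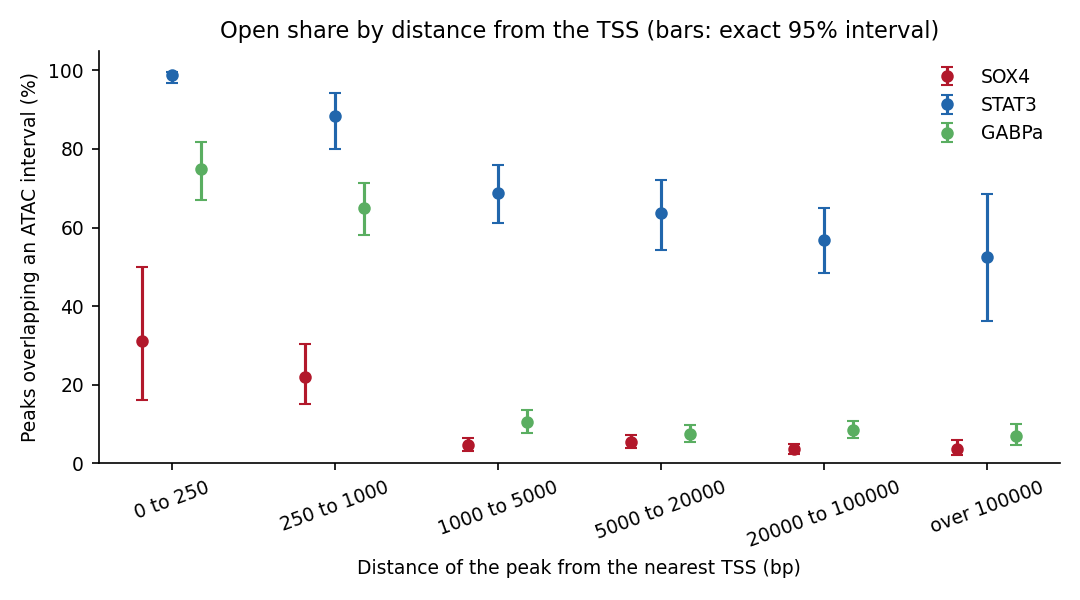
Share of peaks that overlap an ATAC interval (vertical axis, percent) by distance from the nearest TSS (horizontal axis, bp) for SOX4, STAT3 and GABPa. Points are shares and bars exact 95% intervals. SOX4 stays below STAT3 in every class and drops from 31.2% within 250 bp to 3.68% beyond 100000 bp.

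STAT3, from the same population, differed from SOX4 in every distance class. Its peaks were open in 78.4% (75.6 to 81.1) of 885 cases, and in 52.5% (36.1 to 68.5) even beyond 100000 bp from a TSS. Among intronic peaks away from promoters and repeats, where both factors have many members, 4.96% (3.92 to 6.18) of 1512 SOX4 peaks and 66.3% (60.3 to 71.9) of 267 STAT3 peaks were open. GABPa peaks of lin-CD34- cells had 11% (8.80 to 13.5) of 719 there. The lists were not equal in strength, with medians of 10 tags per peak for SOX4, 30 for STAT3 and 14 for GABPa and median widths of 167, 311 and 1021 bp. Peaks of different width have unequal room to touch an interval. The part of tags, width and antibody in these differences was not tested.

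The distance from closed SOX4 peaks to the listed open chromatin varied widely. The ATAC list holds no interval more than 5000 bp upstream of a TSS, so a gap can be longer than the distance to any open site. The median gap from a closed peak to the nearest ATAC interval was 2215 bp (2117 to 2359), and 757 of 2851 closed peaks (26.6%, 24.9 to 28.2) were within 1000 bp of one. Another 2 closed peaks lay on an unplaced sequence that carried no ATAC interval. Closed STAT3 peaks had a like gap of 2228 bp (1564 to 2638), and closed GABPa peaks one of 5374 bp (4913 to 5994). Where the promoter of the nearest gene held an ATAC interval the gap of closed SOX4 peaks was 2002 bp (1859 to 2146), and otherwise 3141.5 bp (2740 to 3454). The closed peaks nearest to an interval touched it without a shared base at Ttc38, Abca1, a cholesterol exporter gene, and Vps37b, of the ESCRT sorting machinery. Those at Gsg1l and Gria1, a glutamate receptor gene, were 2 and 3 bp away. Just inside the rule, Pebp4 shared 1 bp, and Rtp2, Pard3 and Stard13 3 bp each. The 5 farthest were on the Y chromosome at Gm20736, Ssty1 and Gm20917, 19805109 to 33845147 bp from the nearest interval. These genes have many near-identical copies, so the place of their reads is uncertain.

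**Figure D2:**
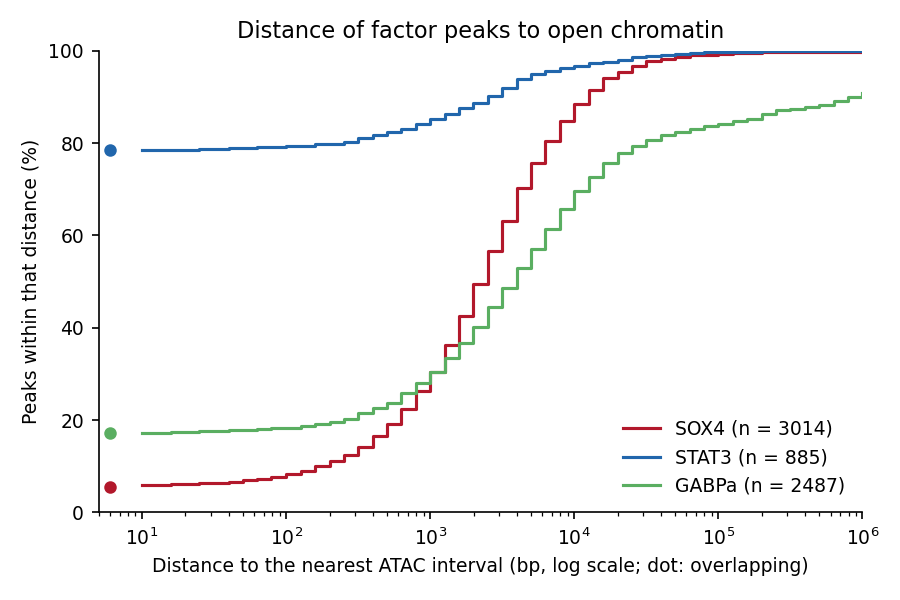
Cumulative share of peaks (vertical axis, percent) within a given distance of an ATAC interval (horizontal axis, bp, log scale) for SOX4, STAT3 and GABPa. Dots at the left edge give overlapping peaks. Of SOX4 peaks on sequences with an interval, 30.5% lie within 1000 bp and 88.4% within 10000 bp, whereas STAT3 starts at 78.4%.

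ATAC intervals were less frequent at the centres of SOX4 peaks than beside them. The centre of 80 of 3014 peaks (2.65%, 2.11 to 3.29) lay in an interval, against a mean of 3.99% over 62 positions from 2000 to 5000 bp to either side. None of those 62 positions was as low as the centre, their range being 3.19% to 4.64%. The ratio of centre to flank was 0.664 (0.528 to 0.824, with the flank taken as fixed). For STAT3 the same ratio was 24.0 (23 to 24.9), with 75% at the centre and 3.13% in the flanks, and for GABPa 3.05 (2.62 to 3.52). The ratio differed between promoters and other places, which the split itself favours. Promoter peaks have their centre near a TSS and their flanks farther off. The other peaks have no centre in a promoter by definition, but their flanks can reach into one. The part of the split in these ratios was not tested. SOX4 promoter peaks had a ratio of 6.61 (4.34 to 9.48) and SOX4 peaks away from promoters 0.480 (0.363 to 0.621). Away from promoters GABPa peaks also had a ratio below 1, 0.646 (0.446 to 0.905), and STAT3 peaks one of 13.5 (12.5 to 14.5). The intervals of SOX4 and GABPa overlap there, so the dip was not shown to be particular to SOX4. Among the 1812 SOX4 peaks more than 10000 bp from a TSS the centre was covered in 1.60% (1.07 to 2.29) and the flanks in 2.64%, a ratio of 0.606 (0.407 to 0.867). GABPa peaks at that distance had 0.844 (0.509 to 1.31). Leaving out peaks in repeats gave 0.606 (0.371 to 0.932) for the distant SOX4 peaks and 1.15 (0.598 to 2.00) for the distant GABPa peaks. Away from promoters it gave 0.561 (0.406 to 0.755) for SOX4 and 1.09 (0.709 to 1.60) for GABPa. Outside repeats GABPa peaks thus showed no dip, although the intervals of SOX4 and GABPa overlap in both comparisons. Over all SOX4 peaks, leaving out those in repeats gave 0.843 (0.654 to 1.07), an interval that includes 1. At SOX4 promoter peaks the centre was covered in 15% (9.85 to 21.5), the positions 500 to 1000 bp away in 20.8% and the flanks in 2.27%. Intervals and peaks reach at most 5000 bp upstream of a TSS in these lists, so part of the flanks could hold no interval.

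**Figure D3:**
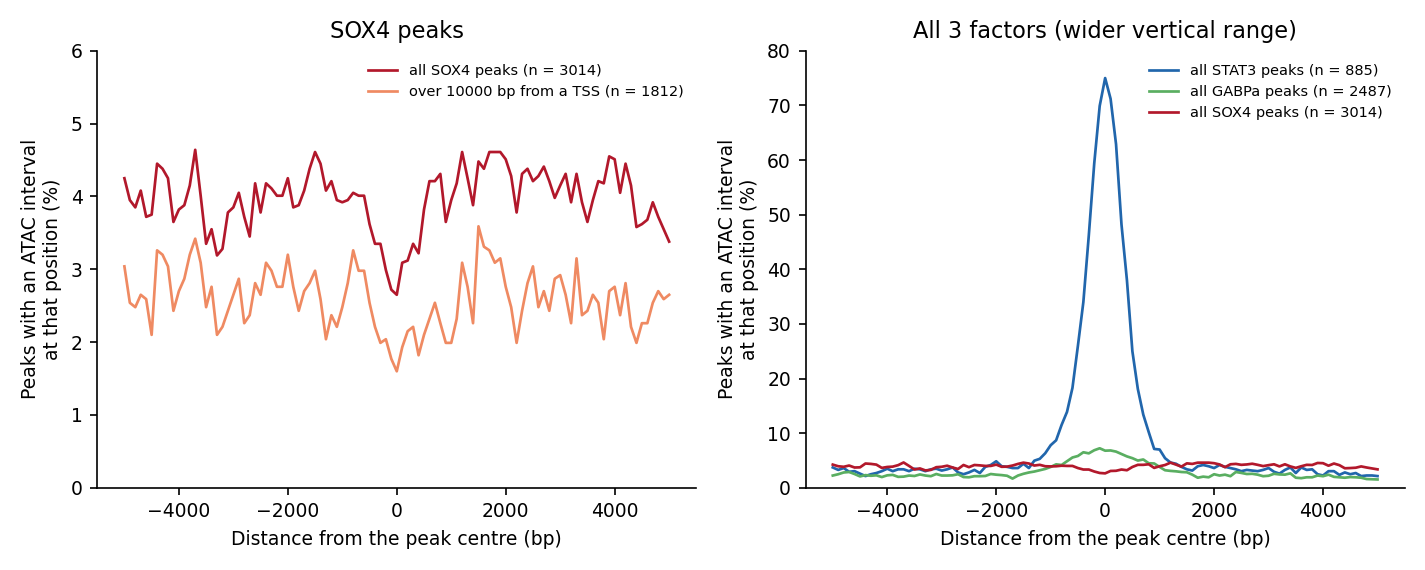
Share of peaks with an ATAC interval at a given position (vertical axis, percent) against distance from the peak centre (horizontal axis, bp, in steps of 100). Left, all SOX4 peaks and those more than 10000 bp from a TSS. Right, all peaks of the 3 factors on a wider vertical range. The SOX4 lines dip at the centre, to 2.65% and 1.60%, and the STAT3 line peaks there at 75%.

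Among the 163 open peaks the cover by ATAC was often partial. A median of 83 bases (71 to 99) or 44.6% of the peak (38.2 to 51.3) was covered, and 20 peaks (12.3%, 7.66 to 18.3) were covered whole. Each open peak met exactly 1 interval. Open promoter peaks were covered by a median of 65.2% (37.8 to 77.9) and the others by 41.9% (36.4 to 47.2). The most bases were covered at Sipa1l1, a Rap GTPase-activating protein gene, with 265 of 279 bases, and at Sema4d, a semaphorin of immune cells, with all 253. Next came Snd1, a subunit of the RNA-induced silencing complex, with all 231, 2410002F23Rik with all 224, and Tubgcp6, of the gamma-tubulin complex, with 216. Pdcd2, Plpp1 and Tnpo2 had 205, Malat1 204, and Neat1 and Cers6 all 200 bases of their peaks covered.

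The intervals that SOX4 peaks met were wider than the rest. Their median width was 189 bp (154 to 246) against 132 bp for the other 143202, and 33.7% (26.5 to 41.6) were listed more than once against 16.7%. Wider intervals have more room to be met under a rule of 1 shared base, and the part of this was not tested. The sources used here do not say what a repeated listing stands for. Of the intervals under open STAT3 peaks 89.9% (87.4 to 92.1) were listed more than once, and 401 of those 694 STAT3 peaks were promoter peaks. Of those under open SOX4 promoter peaks 71.1% (54.1 to 84.6) were so listed, and of those under open SOX4 peaks away from promoters 22.4% (15.4 to 30.7). SOX4 peaks met 0.0742% (0.0519 to 0.103) of the intervals of 73 to 99 bp and 0.220% (0.156 to 0.302) of those of 400 bp or more. Per Mb of interval these were 9.28 and 3.14, an order that also reflects that 1 shared base at an edge counts.

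The open peaks with the highest scores lay at genes of unlike function. The score grows as the caller's p-value falls and the fold is the caller's enrichment over background, both the authors' own values per peak. The first was at Exosc1, a subunit of the RNA exosome (chr19:41924271-41924508, mm10, intron 5 of 5), with 19 tags, a score of 112.2 and 39 bases covered. The peak at Pdcd2, a gene of ribosome maturation, lay 8924 bp from the TSS (chr17:15518270-15518484) with 15 tags, a score of 112.1 and 205 of 215 bases covered. The authors' false discovery rates at Exosc1 and Pdcd2 were 3.87% and 3.82%, against a median of 1.72% for open peaks. Nearest gene means nearest TSS, and by its annotated transcript the Pdcd2 peak lay at the end of Tbp, the TATA-binding protein gene. Malat1, a long RNA of nuclear speckles, had a peak in its only exon (chr19:5802359-5802631), 176 bp from the TSS, with 16 tags, a fold of 21.8 and 204 bases covered. Neat1, the neighbouring long RNA that builds paraspeckles, had one covered whole by an interval of 1133 bp (chr19:5842636-5842835, 12 tags, fold 16.3). The most tags, 25, were at Tiam2, a Rac exchange factor gene (intron 1 of 26), where 47 bases were covered.

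Intronic peaks also stood high among them. Esrrb, an orphan nuclear receptor of pluripotent cells, had 15 tags in intron 1 of 6 with 78 bases covered. Acsl5, an acyl-CoA synthetase gene, had 17 tags and a peak covered whole. Arl1, a small GTPase of the Golgi, had 20 tags, Ankzf1 17 in an intron of Glb1l, Nup43, of the nuclear pore, 14, and Lrriq4 15. Mir6977, with 18, was nearest to a peak at the transcript end of Kdm4b, a histone demethylase gene. Gulo, of vitamin C synthesis, had 17 tags in an RLTR17B_Mm element. The Nme8 peak, with 12 tags, was the only SOX4 peak annotated to a tRNA, an alanine tRNA element. Reads in such repeated sequence may have several places of origin.

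Of the 38 open promoter peaks, the highest scores after Malat1 were at genes of unlike function. Rad54l, of homologous recombination, had 14 tags at 722 bp with 150 of 223 bases covered. Camta1, a calmodulin-binding factor gene, had 14 tags with 12 bases covered, and Ankrd13a 16 tags with 123. Got1l1 had the highest fold of all open peaks, 27.2, on 11 tags with 31 bases covered. Nabp2, printed above, had 19 tags at -287 bp and 99 bases covered. The rest of the 10 were 2410002F23Rik, Zfp653, Plpp1, a lipid phosphate phosphatase gene, and Rngtt, the mRNA capping enzyme, with 16, 12, 13 and 11 tags. Upstream of the TSS lay 44.7% (28.6 to 61.7) of open and 56.6% (47.3 to 65.5) of closed promoter peaks.

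Closed promoter peaks had an open promoter of the nearest gene less often than closed peaks as a whole. Of 122 closed promoter peaks, 71 (58.2%, 48.9 to 67.1) had a nearest gene with an ATAC interval within 1000 bp of its TSS. Over all 2853 closed peaks this share was higher, 70.0% (68.3 to 71.7). Promoter peaks that met an interval were counted as open, so the rule itself can lower the share among closed promoter peaks. The part of this was not tested. Of the 71 closed promoter peaks with such a gene, 45 were within 500 bp of an interval, and the median gap of the 71 was 321 bp (209 to 435). The highest score was at Rtfdc1, with 28 tags at -790 bp and a gap of 128 bp. Myo1g, a myosin of blood cells, had 18 tags and a gap of 387 bp, and Mroh7 11 tags and 944 bp. The promoters of Greb1l (15 tags) and Ccdc162 (17 tags) carried no ATAC interval. The insulin receptor gene Insr had 14 tags at -584 bp and a gap of 357 bp.

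Away from promoters the nearest gene's promoter was open for like shares of open and closed peaks, with intervals that overlap. It was open for 72% (63.3 to 79.7) of 125 open peaks and 70.5% (68.8 to 72.2) of 2731 closed ones. The nearest gene had a median of 11 ATAC intervals (9 to 15) for these open peaks and 9 (9 to 9) for these closed ones. Over all peaks, promoter peaks included, both medians were 9. The share with a protein-coding nearest gene was 90.2% of all open and 90.4% of all closed peaks. In the first intron 5.27% (3.79 to 7.11) of 759 peaks away from promoters were open, and in later introns 3.90% (3.02 to 4.95) of 1641, with intervals that overlap.

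Repeats were less common among open peaks. Of open peaks 30 (18.4%, 12.8 to 25.2) were annotated to a repeat, and of closed ones 994 (34.8%, 33.1 to 36.6). Away from promoters these shares were 24.0% (16.8 to 32.5) and 36.2% (34.4 to 38.0). SINE elements held 6.13% (2.98 to 11) of open and 16.4% (15.1 to 17.9) of closed peaks, and LINE elements 1.84% (0.381 to 5.28) and 7.5% (6.56 to 8.53). LTR elements, remnants of retroviruses, held 7.98% (4.31 to 13.3) and 7.33% (6.4 to 8.34), which overlap. Within the ERVL-MaLR family of LTR elements 8 of 124 SOX4 peaks were open (6.45%, 2.83 to 12.3), and within B4 SINE elements 1 of 112 (0.893%, 0.0226 to 4.87). None of 33 peaks in simple repeats was open, which allows a share of up to 9.09%. ATAC intervals themselves were annotated to repeats in 21.0% of cases. Short reads can be lost in repeats in both assays, and the part of this was not tested.

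**Figure D4:**
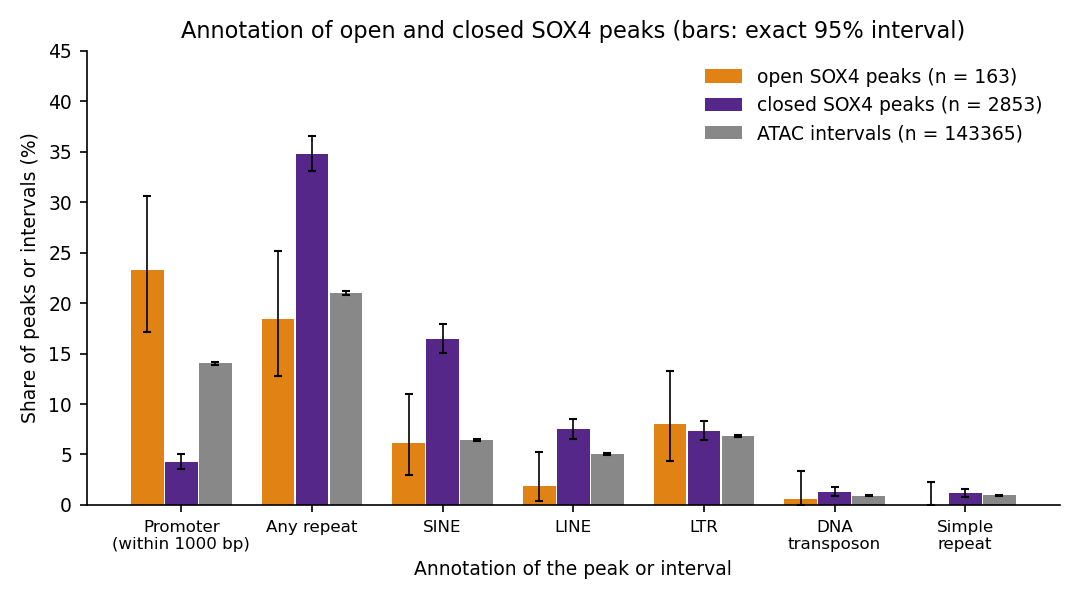
Share of open SOX4 peaks, closed SOX4 peaks and ATAC intervals (vertical axis, percent) annotated as promoter, as any repeat and as 5 repeat classes. Error bars are exact 95% intervals. Open peaks exceed closed ones in promoters (23.3% against 4.28%) and fall below them for repeats (18.4% against 34.8%).

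Median peak strength differed little between open and closed sites, although the open share was highest among peaks with the most tags. The median was 11 tags (10 to 11) for open and 10 (10 to 10) for closed peaks, with ranges of 8 to 25 and 8 to 29 that overlap almost wholly. The median score was 65.4 (64.6 to 69.2) and 64.9 (64.5 to 65.4), and the median fold 13.6 in both. Open peaks were wider, with medians of 183 bp (172 to 191) and 167 bp (165 to 168). The open share was 4.25% (2.95 to 5.92) of 776 peaks with 8 tags, 4.48% with 9 or 10, 6.30% with 11 or 12, 5.89% with 13 to 15 and 9.81% (6.18 to 14.6) of 214 with 16 or more. Away from promoters the lowest and highest of these classes had 3.52% (2.31 to 5.12) and 8.16% (4.74 to 12.9). The intervals of the lowest and the highest class did not overlap over all peaks and did overlap away from promoters. By width the open share was 3.27% (2.08 to 4.86) below 150 bp and 7.77% (5.89 to 10.0) from 200 bp up, and wider peaks have more room to meet an interval. The authors' false discovery rate fell with the score over most peaks, with median scores of 56.8 for the 921 peaks at 2% to under 3%, 68.3 for the 1955 at 1% to under 2% and 75.6 for the 73 under 1%. The 67 peaks at 3% or more were an exception, with a median score of 108.3 and a range of 50 to 116.8. Of the 73 peaks under 1%, 10 were open (13.7%, 6.77 to 23.8).

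**Figure D5:**
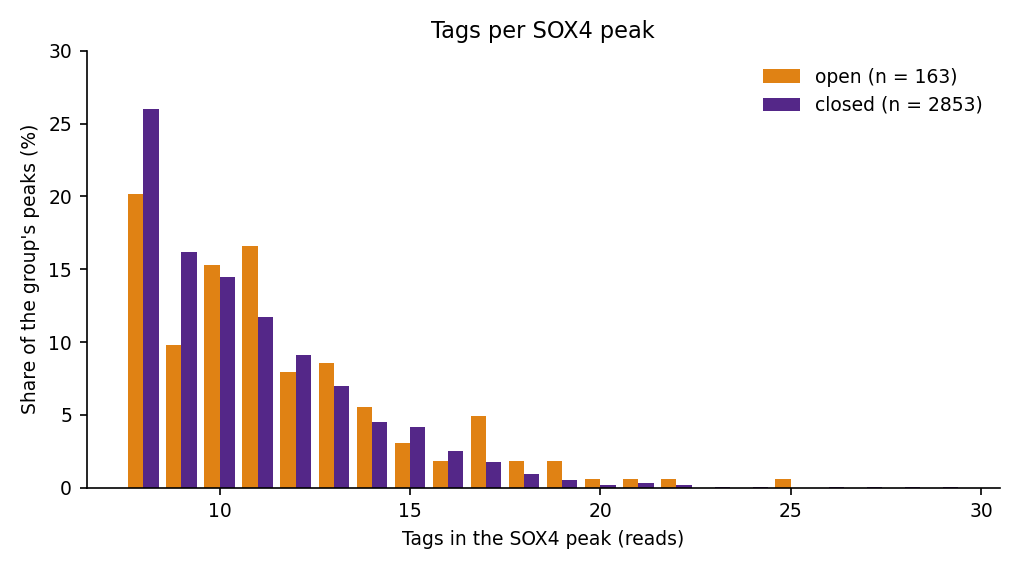
Share of open and of closed SOX4 peaks (vertical axis, percent of the group) by number of tags in the peak (horizontal axis, reads). Both groups have their largest share at 8 tags, with 20.2% of open and 26% of closed peaks, and the distributions overlap over nearly the whole range.

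SOX4 peaks at sites of other factors were mostly closed too. Of 58 SOX4 peaks that overlapped a STAT3 peak 7 were open (12.1%, 4.99 to 23.3), and of 51 that overlapped a GABPa peak 6 (11.8%, 4.44 to 23.9). The share without a STAT3 peak was 5.27% (4.50 to 6.14), so the intervals overlap. At the 51 closed sites shared with STAT3, the STAT3 peak itself was also closed, except at Simc1 and Rftn1. Of all STAT3 peaks 78.4% were open, so the shared sites were not typical of STAT3 peaks. At the 7 open sites the STAT3 library had a median of 51 tags (range 26 to 58), and at the 51 closed ones 24 (18 to 44). SOX4 tags did not follow, with medians of 10 and 11. Zbtb7a, a zinc finger repressor of blood lineages, was the only open site with both factors, at 1083 bp from the TSS in a CpG island, with 21 SOX4, 51 STAT3 and 30 GABPa tags. Srsf1, a splicing factor gene, had 10 SOX4 and 58 STAT3 tags in its 5' UTR. Plpp1 had 13 and 33, and Gramd3 13 and 26. Ttll5 (9 and 35) and 1700012I11Rik (8 and 56) lay in Lx9 and ORR1E repeats. With GABPa of lin-CD34- cells, Ric8b had 11 SOX4 and 61 GABPa tags, Tnfrsf26 12 and 50, Snd1 13 and 25, and Pard3 8 and 12.

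By gene, open SOX4 peaks were spread thinly. The 3016 peaks had 2596 nearest genes, of which 162 (6.24%) had an open peak, and 31 of these also had a closed one. Samd10 was the only gene with 2 open peaks, 1 at -92 bp covered whole and 1 in exon 2 with 197 of 204 bases covered. The 14 genes with at least 4 SOX4 peaks held 60 peaks, 2 of them open, where 5.40% of all SOX4 peaks were open. With so few open peaks this count is not read as a departure from that share. Wwox, a long gene at a fragile site, had 6 peaks and 1 open with 15 bases covered. Maf, a bZIP factor gene, had 5 and 1 open, at -1427 bp with 102 bases covered. Pcdh15, a protocadherin gene of hair cells, had 5, and 4930563F08Rik and Adgrl3 4 each, none open. The 4 closed Maf peaks, 376405 to 552397 bp from its TSS, lay in intron 8 of the neighbouring Wwox transcript, as did 5 of the Wwox peaks. That 1 intron thus held 9 SOX4 peaks, more than any other intron with a matched transcript, with 1 open. The next had 4 each and none open, in Caln1, Csmd1 and Map2k6. Over all intronic peaks with a transcript found in RefSeq, 375 of 2423 lay inside a gene other than the nearest one. Of the 118 open ones among the 2423, 12 did so. Long genes and introns offer more room for peaks, and the part of length was not tested.

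Gene lists gave few open SOX4 peaks, and each share below is read against the 5.40% of all peaks. Splicing factor genes had 12 SOX4 peaks, 3 open (25%, 5.49 to 57.2). These were Srsf1, Srsf3 (10 tags, intron 2 of 6, 49 bases covered) and Hnrnpc, a binder of nascent RNA (8 tags, in an RMER10A repeat, 79 bases covered). The highest closed ones of that list were Ptbp3, Celf2, Rbfox2 and Srsf7, with 13, 15, 10 and 14 tags. Known SOX4 targets and partners had 5 peaks, 1 open, at Mdm2, the ubiquitin ligase of p53, at the transcript's end with 13 tags and 195 of 220 bases covered. Cdk6, Zeb2, Cd79a and Ezh2 had the closed ones, with 11, 11, 10 and 8 tags. No SOX4 peak had Sox4, Stat3, Gabpa, Tcf7 or Runx1 as its nearest gene.

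Neural adhesion and guidance genes held the most SOX4 peaks of any list, 47 at 25 genes with 8 to 22 tags, and none was open. A count of 0 in 47 allows a share of up to 6.38%, which includes the share of all peaks. Their highest scores were at Cntnap5b, Csmd3, Ptprt and Robo1 with 15, 22, 12 and 14 tags, and the median gap was 5345 bp. Voltage-gated and potassium channel genes had 20 peaks, none open, led by Scn8a (21 tags) and Kcns2 (14 tags). Chromatin regulator genes had 18 at 13 of 42 genes, none open, and 36 of the 42 had an open promoter. The counts of 0 in 20 and in 18 allow shares of up to 15% and 16.7%, which include the share of all peaks. Hdac9, Tet1, Hdac4 and Cbx7 led that list, with 15, 11, 13 and 13 tags. Smarcc2, a subunit of the BAF remodelling complex outside the list and named after its value was seen, had an open peak 794 bp from its TSS with 9 tags.

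The signalling and lineage lists had few SOX4 peaks and none of them was open. With at most 9 peaks in a list, a count of 0 allows a share of at least 33.3%, so no departure from the share of all peaks can be read from these lists. TGF-beta and BMP pathway genes had 9, led by Smurf2, Smad9, Tgfb2 and Bmpr1a with 13, 14, 11 and 9 tags, and the Smad9 peak was 68 bp from an interval. Wnt pathway genes had 6, at Axin1, Gsk3b, Sfrp1, Lrp6 and 1 further gene. SOX family genes had 4, at Sox18, Sox12, Sox6 and Sox5, with 9, 13, 8 and 10 tags. Blood stem and progenitor factors had 3, at Erg (11 tags), Meis1 (16 tags) and Etv6 (8 tags), and 25 of the 30 genes had an open promoter. Cell cycle genes had 3, at Ccnb1, Cdk6 and Mcm2. Receptor genes had 1 at Insr, JAK-STAT genes 1 at Socs2, and lymphoid markers 1 at Cd79a. The lists of erythroid, myeloid, mast cell or megakaryocyte and non-blood markers had no SOX4 peak.

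The strongest closed peaks were of the same size as the strongest open ones. The 10 closed peaks of highest score had 13 to 21 tags and scores of 112.5 to 116.8, and among their nearest genes were Tmem186, Scn8a, Wars2, Kcns2, Nr3c2, Akap6, Nmnat2, Smtn and Zfp710. The highest open score was 112.2, at Exosc1. The authors' false discovery rates of the 10 closed peaks were 4.0% to 4.92%, against a median of 1.73% for closed peaks. A high score thus did not go with a low false discovery rate here. The gaps of the 10 closed peaks to an ATAC interval ran from 594 bp at Tmem186 to 8213 bp at Wars2, a mitochondrial tRNA synthetase gene. The nearest gene's promoter was open for 6 of these 10. By annotated transcript the Tmem186 peak lay in Abat, of GABA breakdown, and the Kcns2 peak in Stk3, a kinase of the Hippo pathway.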

How the data were processed

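SOX4, STAT3 and GABPa ChIP-seq and ATAC-seq libraries of EML cells were compared as deposited peak lists. Tag counts, deposited by the authors, are whole reads per peak, by the headers. The deposited score rises with the negative logarithm of the caller's p-value. The authors' fold enrichment is a ratio to the caller's background, and their deposited false discovery rate is in percent. The ATAC list holds 195295 entries of positions and annotation without a value. Bowtie2, MACS2, HOMER, Picard, SAMtools, CASAVA 1.7 and the build mm10 are named in the submitters' processing notes. Caller settings, the control used and any shift of ATAC reads are, in the sources used here, not given. Library totals are not given either, so depth is seen as tags per peak. The control libraries were not analysed here.

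Entries with the same chromosome, start and end were counted as 1 interval. An open peak shared at least 1 bp with an interval, and promoter peaks were those at most 1000 bp from a TSS by the authors' distance. Shares carry exact Clopper-Pearson 95% intervals and medians exact order-statistic intervals; a limit after a count of 0 stands for 3 counts. Host transcripts and promoter sequences came from RefSeq (GRCm38.p6). Work was done in Python 3.11.15 (scipy 1.17.1, pandas 2.3.3, numpy 2.4.6, matplotlib 3.10.9), and the steps were tested on simulated data.

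The peaks, the 18 gene lists, the alternatives and the rule for named genes were chosen with earlier results of these data known. The rule took the open peaks with the highest scores, the highest-scoring open and closed promoter peaks and closed peaks, the open peaks with the most and the fewest covered bases, and the closed peaks nearest to and farthest from an interval. It also took genes with 2 or more open peaks or the most peaks, list members with an open or a high-scoring closed peak, Sox4, Stat3, Gabpa, Tcf7 and Runx1, and open peaks shared with STAT3. Other genes named here were chosen after their values were seen: those of open peaks shared with GABPa alone, those with a CpG island annotation, Neat1, Smarcc2, Simc1, Rftn1, and the genes of printed promoter windows. Some genes that the rule took are not reported here.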

Additional observations from a re-analysis of the deposited data

How the results depend on the processing

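No paired analysis was possible because each group is 1 library and the labels carry no replicate numbers; for the same reason no library could be left out. Over 13 results and 17 alternatives, 96 of 157 recomputed values stayed inside the interval of the value in the report and 61 lay outside it. Open meant more or fewer peaks with the overlap rule: 2.32% of SOX4 peaks were open when at least 50% of the peak had to be covered (promoter peaks 14.4%, others 1.65%, promoter share of open peaks 32.9%) and 2.65% by peak centre (15% and 1.96%). Within 500 bp of an interval it was 19.2% (55.0% and 17.2%), with promoters 15.2% of open and 2.95% of closed peaks, repeats 28.4% of open peaks and a median gap of 2762.5 bp. With only ATAC intervals of at least 200 bp the open share was 2.69% (1.79% away from promoters), promoters and repeats made up 37.0% and 11.1% of open peaks, the gap was 7226 bp and 53.0% of closed peaks had an open nearest promoter. Without ATAC intervals in repeats these were 4.48% open (3.40% away from promoters), 7.41% of open peaks in repeats and a gap of 2889 bp. With only intervals listed more than once, chosen after seeing the data, 1.82% were open (16.9% of promoter peaks, 0.980% of others), promoters and repeats made up 49.1% and 12.7% of open peaks, the gap was 15175 bp and 46.5% of closed peaks had an open nearest promoter. Without SOX4 peaks in repeats, 6.68% were open, promoters made up 6.24% of closed peaks, the gap was 2116 bp and, as an alternative chosen after seeing the data, the centre to flank ratio was 0.843; the repeat shares can have no value there. Above the median score both groups had a median of 12 tags.

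The 73 peaks with the authors' false discovery rate under 1% had 13.7% open (promoter 16.7%, others 13.4%), promoters in 10.0% of open and 7.94% of closed peaks, repeats in 30% of open peaks, medians of 11.5 and 13 tags, a gap of 3203 bp and 55.6% of closed peaks with an open nearest promoter. In that subset the contrasts of promoters and repeats between open and closed peaks were within their intervals. A promoter of 500 bp gave 31.8% of promoter peaks open, 12.9% and 1.58% of open and closed peaks in promoters, and open nearest promoters for 65.6% and 61.8%. One of 5000 bp gave 8.21%, 43.6% and 27.8%, and 97.5% and 87.6%. The authors' class of promoter gave 12.9% and 2.91%, and 52.1% and 48.7%. The open share of promoter peaks was above that of the others under each of these alternatives. In the subset under 1% its interval, 0.421 to 64.1, included the share of the others, so no contrast was shown there. The other 8 alternatives of the centre to flank ratio, all chosen after seeing the data, lay inside its interval. Peaks of 8 to 29 tags limit the depth, so a SOX4 site of few reads would be missing from the list, and a missing ATAC interval does not show closed chromatin.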
